A study of Mus musculus with 6 samples.

Results

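Hearts of treated Myh6 RH/RQ mice were compared with hearts of Myh6 RH/+ mice that had received vehicle, across all genes with a mean CPM of at least 1 over the 4 libraries of these groups. CPM is the read count of a gene scaled to a common library total. That rule kept 13453 of the 27638 genes in the table of the comparison (48.7%). The fuller series holds 6 libraries, 2 in each of 3 groups. Myh6 encodes the main myosin heavy chain of the adult mouse ventricle, the motor of the thick filament. The RH/+ group carried the RH allele beside an unmarked copy of Myh6 and received vehicle. The treated group carried the RH allele beside the RQ allele and received AAV-hpCas13d, an adeno-associated virus that carries the RNA-cutting enzyme hpCas13d. The remaining group, RH/RQ with vehicle, is given beside the results as levels without a test. Every animal carried RH, dosing was neonatal, and hearts were collected 12 months later. The labels do not spell out RH or RQ, do not name the RNA that hpCas13d was aimed at or the promoter that drives it, and do not give the sex of the mice or the part of the heart taken.

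RH/+ and treated hearts differed in allele and in treatment at once, so an effect of the RQ allele and one of AAV-hpCas13d cannot be told apart in this comparison. The labels list separate samples but do not say that each came from its own animal, so library-to-library spread may be technical. The limma p-values and SE below take most of their spread from a trend over all tested genes. The prior had 31.6 degrees of freedom against 2 residual ones, so a gene's own libraries count only in small part. Heart tissue also mixes cell types: fewer cells of a type and less RNA per cell cannot be told apart.

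A stressed ventricle is known to return to part of its fetal gene program, with more natriuretic peptide, beta-myosin and skeletal actin RNA, while fibroblasts lay down collagen and other matrix proteins. Heart cells also respond to circulating glucocorticoid hormone and to the FoxO transcription factors, which share targets such as Per1, Tsc22d3 and Pdk4. These programs are used as markers of load and of hormone state in mouse hearts.

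Library totals ran from 36269261 to 39914862 reads over the 4 libraries, and 3 reads, the limit that a count of 0 allows, came to between 0.0752 and 0.0827 CPM (counting error only). Transcripts of the mitochondrial genome took 20.9% and 19.5% of the RH/+ reads and 17.2% and 19.9% of the treated reads. The 2 treated libraries differed from each other more than the 2 RH/+ libraries did, and the mean chi-square over genes was 23.7 against 12.4. The ribosomal RNA entry CT010467.1 fell, from 6453 and 5525 CPM in RH/+ to 4298 and 2050 CPM in treated libraries (limma adjusted p = 0.0019), and its part in the other results was not tested. The Y-linked genes Ddx3y, Eif2s3y, Uty and Kdm5d summed to at most 0.0527 CPM in each RH/+ and treated library. In RH/RQ vehicle libraries the sums were 198 and 193 CPM, with Xist at 0.274 and 0.0516 CPM, the pattern of male tissue. RH/+ and treated libraries had the pattern of female tissue. The RH/RQ vehicle levels given below thus differ from the others in sex pattern too, and its part in them was not tested. Xist was at 280 and 265 CPM in RH/+ and 299 and 326 CPM in treated libraries (log2 fold change 0.20 ± 0.10 SE, limma adjusted p = 0.367).

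Myh6 itself was at 14786 and 18251 CPM in RH/+ hearts and at 14297 and 15258 CPM in treated hearts. The ranges overlapped, and the log2 fold change was -0.15 ± 0.22 (SE, n = 2 per group; limma adjusted p = 0.792). In RH/RQ vehicle hearts Myh6 was at 15066 and 17720 CPM. The counts do not separate the alleles, so they say nothing of the share of RH or RQ RNA. The ventricular markers Myl2, Myl3, Tnnt2, Tnni3, Actc1 and Ryr2 were abundant in every library and none was called. Myl2, a ventricular myosin light chain, was at 7679 and 8508 CPM in RH/+ and 8291 and 8626 CPM in treated hearts.

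Of the 13453 genes, 531 (3.95%) differed at a limma adjusted p under 0.05, where fold changes are on the log2(CPM + 1) scale, which understates the change of low genes. Higher in treated hearts were 429 genes (3.19%), and lower were 102 (0.758%). The ratio of group means reached 1.5 for 250 of the higher and 61 of the lower genes, and 2 for 87 and 31. The median log2 fold change over all tested genes was 0.09. With TMM factors, which centre the bulk of the genes, that median was near 0 and the split was 253 higher (1.88%) and 189 lower (1.40%). The higher share of calls was then 57.2%, against 80.8% when CPM were used as deposited. RLE factors gave 1.87% higher and 1.40% lower, edgeR on the recovered reads 1.91% and 1.36%, and DESeq2 1.49% and 1.20%. Omitting RH/+ replicate 1 left 137 genes higher (1.02%) and 35 lower (0.26%), and omitting RH/+ replicate 2 left 238 (1.77%) and 64 (0.476%). Omitting treated replicate 1 gave 508 higher (3.78%) and 189 lower (1.4%), and omitting treated replicate 2 gave 1377 (10.2%) and 188 (1.4%). Calls that stayed in the same direction through all 4 of these omissions numbered 107 of the 429 higher and 24 of the 102 lower genes.

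**Figure D1:**
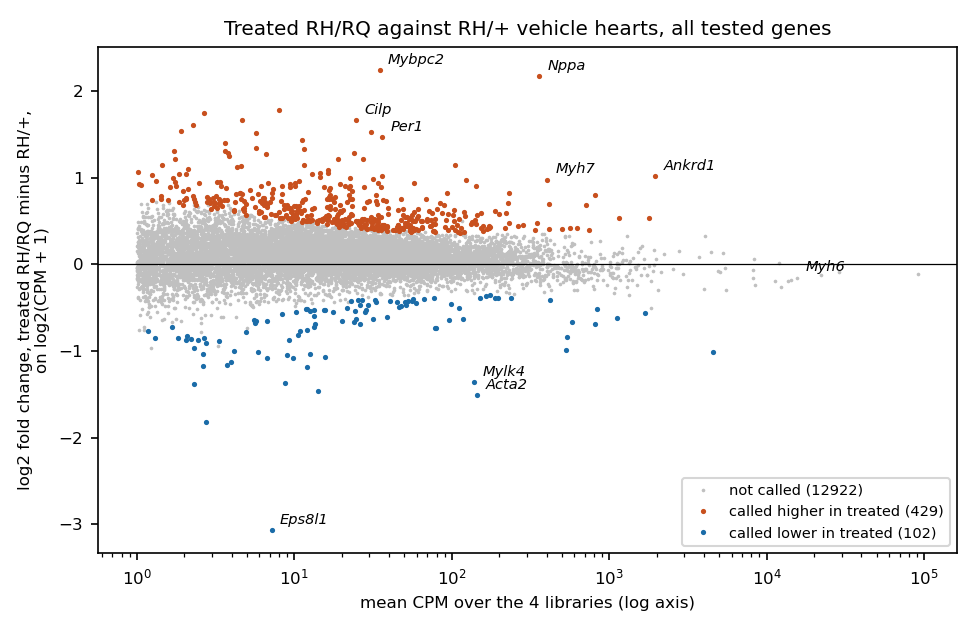
Each point is 1 tested gene, with mean CPM over the 4 libraries on a log axis against the log2 fold change of treated RH/RQ over RH/+ hearts on log2(CPM + 1). The 429 genes called higher and 102 called lower are coloured; Mybpc2 and Nppa stand at the top, Eps8l1 at the bottom, and Myh6 lies near 0.

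Mybpc2 and Nppa, both in the list of fetal and hypertrophy genes, had the largest log2(CPM + 1) rises among called genes with a standard symbol. By the ratio of group means, low genes such as Fetub (6.83) and Vgll2 (6.37) rose more than Mybpc2 (5.01) and Nppa (4.67). Mybpc2, the fast skeletal form of myosin-binding protein C (chr7:44501699-44524656, minus strand, GRCm38), was at 9.95 and 13.2 CPM in RH/+ hearts and at 57.3 and 58.8 CPM in treated hearts. Both treated libraries lay above both RH/+ libraries, with group means of 11.6 ± 2.32 and 58.1 ± 1.00 CPM (SD, n = 2) and a difference of 2.24 ± 0.13 in log2 units (SE; limma adjusted p = 1.18e-14). RH/RQ vehicle hearts had 42.0 and 40.4 CPM. Nppa, which encodes atrial natriuretic peptide (chr4:148000722-148002079, plus strand), was at 110 and 143 CPM in RH/+ hearts and at 428 and 753 CPM in treated hearts. The treated libraries differed from each other, yet the lower of them was far above both RH/+ values, and the log2 fold change was 2.17 ± 0.15 (SE; limma adjusted p = 2.29e-12). The DESeq2 adjusted p for Nppa was 0.00045. RH/RQ vehicle hearts, at 112 and 117 CPM, lay within the RH/+ range for Nppa. Nppb, which encodes the related B-type peptide and neighbours Nppa in the genome, was at 524 and 540 CPM in RH/+ and 616 and 646 CPM in treated hearts and was not called (limma adjusted p = 0.25).

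Myh7, the slow beta-myosin heavy chain whose RNA marks a loaded mouse ventricle, was at 255 and 286 CPM in RH/+ and 505 and 563 CPM in treated hearts. The groups did not overlap, and the log2 fold change was 0.98 ± 0.11 (SE; limma adjusted p = 1.51e-07). Myh6 and Myh7 are close paralogs, and how the counting treated reads that fit both was not tested. The stretch-responsive nuclear and Z-disc protein gene Ankrd1 rose from 1309 and 1281 CPM to 2444 and 2817 CPM (log2 fold change 1.02). Myot, which encodes the Z-disc protein myotilin, rose from 99.5 and 98.2 to 187 and 184 CPM. Acta1, skeletal alpha-actin, rose from 532 and 651 to 1049 and 1004 CPM, a log2 fold change of 0.80. The higher levels of Myh7, Ankrd1, Myot and Acta1 were close to those of RH/RQ vehicle hearts, which had 514 and 662, 2512 and 2399, 197 and 186, and 1094 and 1376 CPM.

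In the list of 20 tested fetal and hypertrophy genes, 10 rose and 1 fell, where 3.19% and 0.758% of all tested genes did. The list's median log2 fold change was 0.34, against 0.09 over all tested genes. This list and the others below were chosen with earlier results of these data known. A high share in a list is therefore not independent of these data. The other rises were the matricellular growth factor gene Ccn2, Myh7b, Gdf15, and the calcineurin inhibitor gene Rcan1, which went from 97.4 and 99.5 to 124 and 129 CPM. With each library left out in turn, 7 of the 10 rises held; Myh7b was lost without RH/+ replicate 1 or treated replicate 1, Gdf15 without either of those or RH/+ replicate 2, and Rcan1 without either RH/+ replicate. Rcan1 was also lost with TMM factors (limma adjusted p = 0.26). The 1 fall was Acta2, smooth muscle alpha-actin (chr19:34241090-34255590, minus strand), at 242 and 191 CPM in RH/+ and 73.5 and 76.2 CPM in treated hearts. Its log2 fold change was -1.51 ± 0.11 (SE; limma adjusted p = 8.05e-12), and RH/RQ vehicle hearts had 71.3 and 98.0 CPM.

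**Figure D2:**
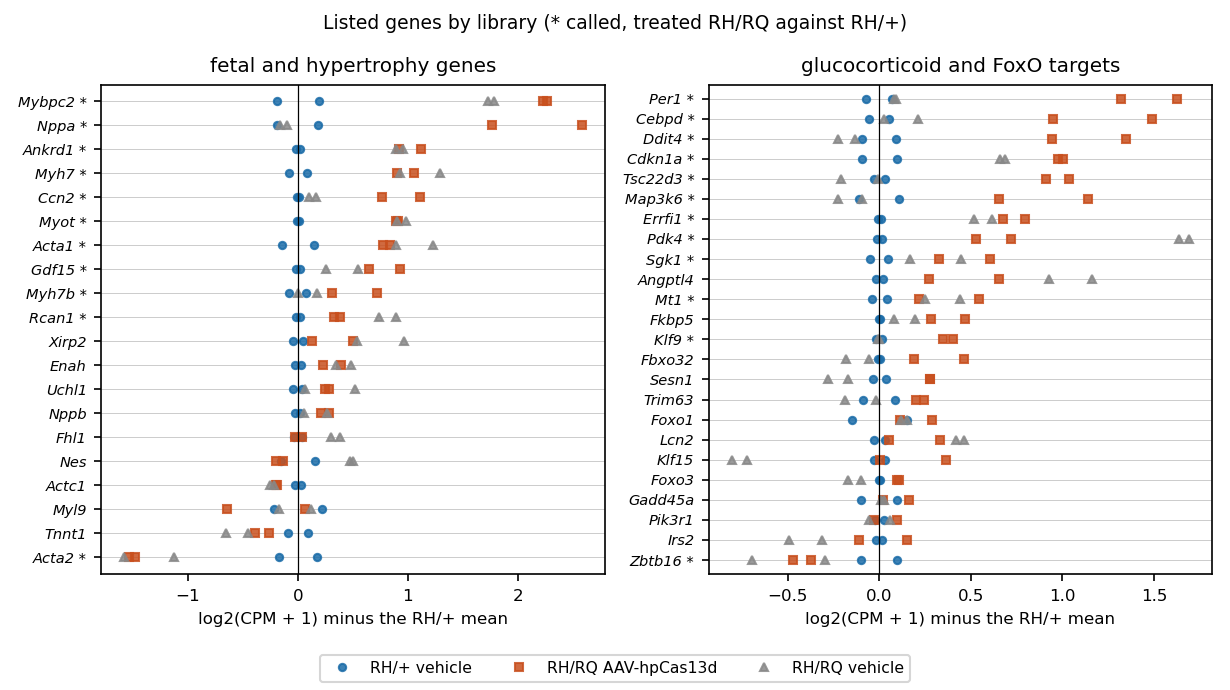
For the tested fetal and hypertrophy genes (left) and glucocorticoid and FoxO targets (right), each point is 1 library, on log2(CPM + 1) minus the RH/+ mean of that gene; an asterisk marks genes called between treated and RH/+ hearts. Treated libraries of Nppa, Per1, Ddit4, Tsc22d3 and Cebpd lie above both vehicle groups, which are close together in these genes, while in Myh7, Ankrd1 and Myot the treated libraries lie beside the RH/RQ vehicle libraries. In Cdkn1a and Errfi1 the RH/RQ vehicle libraries lie between RH/+ and treated.

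Promoters of 2 of these genes are printed to show the core sequences next to their starts, since both genes rose and both windows hold the letters TATAAA. Each is the 250 bases before the RefSeq start on GRCm38.p6, 5′ to 3′ on the gene's strand, with motif matches in capitals. That of Nppa is chr4:148000472-148000721 on the plus strand, and its capitals mark TATAAA. That of Acta1 is chr8:123894776-123895025 on the minus strand, and its capitals mark a CArG box, the motif that serum response factor binds, and then TATAAA.
Nppa: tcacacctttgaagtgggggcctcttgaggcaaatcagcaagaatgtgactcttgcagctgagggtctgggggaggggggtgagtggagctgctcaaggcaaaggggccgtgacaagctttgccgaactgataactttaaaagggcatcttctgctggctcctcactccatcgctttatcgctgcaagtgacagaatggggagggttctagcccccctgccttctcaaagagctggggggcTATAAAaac
Acta1: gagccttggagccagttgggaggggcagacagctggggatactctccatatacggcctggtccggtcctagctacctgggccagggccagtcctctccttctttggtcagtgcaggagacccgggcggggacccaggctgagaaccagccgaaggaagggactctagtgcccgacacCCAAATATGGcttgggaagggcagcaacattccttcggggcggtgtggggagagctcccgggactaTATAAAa

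Of the tested genes, 10071 had such a promoter in RefSeq, among them 318 of those called higher and 66 of those called lower. Matches to 7 motifs were counted on both strands, and a CArG box and a TATA box may share letters. TATAAA stood in 6.62% of all these promoters, in 11.01% of those of higher genes and in 13.6% of those of lower genes. The CArG box stood in 1.14%, 1.57% and 3.03% in the same order. A match is only a run of letters in this window and does not show that a factor binds there.

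Other skeletal muscle genes were among the largest rises. Neb, the giant thin-filament protein nebulin, was at 3.02 and 3.01 CPM in RH/+ and 16.0 and 10.1 CPM in treated hearts (log2 fold change 1.78 ± 0.18 SE; limma adjusted p = 1.39e-08). Tbx15 and Vgll2, transcriptional regulators known from skeletal muscle, rose from 1.29 and 2.05 to 5.60 and 9.60 CPM and from 0.578 and 0.651 to 4.08 and 3.74 CPM. RH/RQ vehicle hearts had 6.19 and 7.17 CPM of Neb, 3.92 and 4.56 CPM of Tbx15 and 3.94 and 5.98 CPM of Vgll2. In the skeletal muscle list 4 of 12 tested genes rose (Mybpc2, Myot, Acta1 and Casq1) and 0 fell. That is 33.3% higher, against 3.19% of all tested genes, but its median log2 fold change was 0.07, near that of all tested genes. Casq1, the fast-fibre calsequestrin, went from 3.05 and 5.01 to 7.003 and 9.65 CPM and was lost without RH/+ replicate 1. Of 33 sarcomere and Z-disc genes, Synpo2l and Myom2 rose and Mylk4 fell (6.06% and 3.03%, against 3.19% and 0.758% of all tested genes). Myom2, the M-band protein myomesin-2, was at 901 and 988 CPM in RH/+, 1298 and 1435 CPM in treated and 932 and 925 CPM in RH/RQ vehicle hearts. The call of Synpo2l was lost without RH/+ replicate 1, and that of Myom2 without either RH/+ replicate.

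Nppa is also an atrial marker, so the other atrial genes were read beside it. The defining atrial genes were at or near the floor: Myl7 was at 0.473 and 0.401 CPM in RH/+ and 0.607 and 0.0791 CPM in treated hearts. Sln was at 0 and 0 against 0.110 and 0.0264 CPM, which is 4 and 1 reads in the treated libraries, and Bmp10 was at 0.341 and 0.125 against 0.0551 and 0.0791 CPM. Myl4, the atrial light chain, was at 1.23 and 0.752 against 2.01 and 1.90 CPM and was not called (limma adjusted p = 0.134). Of 15 tested atrial genes, 4 rose (Nppa, Kcna5, Gnao1 and Dkk3) and Kcnj3 fell, and the median log2 fold change was 0.08. These are 26.7% and 6.67% of the list, against 3.19% and 0.758% of all tested genes. Kcna5, a potassium channel that carries an ultrarapid repolarising current, was at 19.3 and 19.0 CPM in RH/+, 39.8 and 33.1 CPM in treated and 21.5 and 21.5 CPM in RH/RQ vehicle hearts. The whole atrial list summed to 2004 and 2096 CPM in RH/+ and 2368 and 2858 CPM in treated hearts. These sums did not overlap, but they include Nppa, which itself went from 110 and 143 to 428 and 753 CPM. They do not show a rise of the other atrial genes.

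Several targets of glucocorticoid hormone and FoxO factors rose in treated hearts. In RH/RQ vehicle hearts Per1, Ddit4, Tsc22d3, Cebpd, Map3k6 and Klf9 were close to RH/+ levels. Cdkn1a, Errfi1, Pdk4, Sgk1 and Mt1 were above both RH/+ libraries there. Per1, a repressor of the circadian clock that glucocorticoids induce (chr11:69095217-69109960, plus strand), was at 17.6 and 19.5 CPM in RH/+ hearts and at 59.1 and 47.6 CPM in treated hearts. The groups were well apart, and the log2 fold change was 1.47 ± 0.12 (SE; limma adjusted p = 1.71e-10), and RH/RQ vehicle hearts had 19.8 and 19.6 CPM. Ddit4, an inhibitor of mTOR signalling, was at 60.1 and 68.6 against 165 and 124 CPM (log2 fold change 1.14 ± 0.12 SE; limma adjusted p = 2.17e-08), with 58.6 and 54.8 CPM in RH/RQ vehicle hearts. Tsc22d3, the glucocorticoid-induced leucine zipper, was at 81.2 and 84.8 against 171 and 157 CPM, with 82.5 and 71.7 CPM in RH/RQ vehicle hearts. Cebpd, a transcription factor of the acute-phase response, was at 10.4 and 11.3 against 32.3 and 21.9 CPM, with 12.7 and 11.1 CPM in RH/RQ vehicle hearts. In Per1, Ddit4, Tsc22d3 and Cebpd both treated libraries were above all 4 vehicle libraries, and treated replicate 1 was above replicate 2. Whether the treated hearts differ from RH/RQ vehicle hearts in these genes was not tested here.

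In the list of 24 tested glucocorticoid and FoxO targets, 11 rose (45.8%) and 1 fell (4.17%), where 3.19% and 0.758% of all tested genes did. The list's median log2 fold change was 0.37, against 0.09 over all tested genes. The cell-cycle inhibitor gene Cdkn1a rose from 19.5 and 22.4 to 42.0 and 42.8 CPM, with 33.5 and 34.2 CPM in RH/RQ vehicle hearts. The kinase gene Map3k6 rose from 11.3 and 9.60 to 24.2 and 17.0 CPM, with 9.70 and 8.79 CPM in RH/RQ vehicle hearts. Pdk4, which restrains glucose oxidation in mitochondria, rose from 146 and 149 to 213 and 243 CPM and was at 461 and 478 CPM in RH/RQ vehicle hearts. Errfi1, Sgk1, Klf9 and the metallothionein gene Mt1 also rose, and the transcription factor gene Zbtb16 fell from 56.0 and 64.4 to 43.0 and 46.2 CPM. Sgk1, Klf9 and Mt1 were lost with TMM factors (limma adjusted p between 0.056 and 0.2) and without either RH/+ replicate, and Sgk1 and Mt1 also without treated replicate 1. The other 8 rises held in each of these. Zbtb16 was lost without either RH/+ replicate. Fkbp5, a chaperone of the glucocorticoid receptor and one of its best known targets, was at 21.7 and 21.6 against 30.4 and 26.6 CPM and was not called (limma adjusted p = 0.0831). Without treated replicate 2 the list had 14 rises.

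Neighbouring programs were mixed, where 3.19% of all tested genes rose and 0.758% fell. Of 21 circadian clock genes, Per1 and Npas2 rose and 0 fell (median log2 fold change 0.09), and Npas2 was lost with TMM factors and without either RH/+ replicate or treated replicate 1. Per2 was at 25.3 and 28.1 against 37.5 and 32.8 CPM and Arntl at 12.2 and 12.5 against 16.2 and 15.5 CPM, and neither was called. Of 26 immediate early genes, 8 rose (30.8%, against 3.19% of all tested genes) and 0 fell (median log2 fold change 0.32), but omitting RH/+ replicate 1 left 4 rises, omitting RH/+ replicate 2 left 3, and omitting treated replicate 2 gave 15. Zfp36, which destabilises cytokine RNAs, rose from 17.2 and 16.8 to 31.0 and 27.6 CPM. Egr1, Egr2 and Egr3, zinc-finger factors that appear within minutes of a stimulus, rose as well, with log2 fold changes of 0.72, 1.04 and 0.81. Egr1 and Egr2 held with every library left out in turn, and Egr3 was lost without RH/+ replicate 2. Arrdc2, an arrestin-domain protein gene in none of the lists, rose from 5.64 and 5.34 to 19.1 and 14.4 CPM and was at 6.70 and 4.36 CPM in RH/RQ vehicle hearts.

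Promoters of 3 rising genes from these lists are printed because each holds a motif of the pathway it was listed for. They are the 250 bases before the RefSeq start, as above. That of Per1 (chr11:69098699-69098948, plus strand; RefSeq gives 2 starts for this gene) has capitals at the E-box CACGTG. Those of Map3k6 (chr4:133240568-133240817, plus strand) and Mt1 (chr8:94178839-94179088, plus strand) have capitals at a match to the glucocorticoid receptor element, an inverted repeat with a spacer of 3 bases.
Per1: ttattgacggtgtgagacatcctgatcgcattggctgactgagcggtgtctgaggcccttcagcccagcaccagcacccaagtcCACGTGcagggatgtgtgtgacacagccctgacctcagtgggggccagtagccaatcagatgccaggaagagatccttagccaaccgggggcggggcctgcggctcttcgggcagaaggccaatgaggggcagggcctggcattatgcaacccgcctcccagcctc
Map3k6: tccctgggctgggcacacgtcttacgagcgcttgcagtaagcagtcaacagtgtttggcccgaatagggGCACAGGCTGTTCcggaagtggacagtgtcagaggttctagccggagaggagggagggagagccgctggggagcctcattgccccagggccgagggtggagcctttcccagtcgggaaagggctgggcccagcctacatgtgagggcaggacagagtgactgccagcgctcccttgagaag
Mt1: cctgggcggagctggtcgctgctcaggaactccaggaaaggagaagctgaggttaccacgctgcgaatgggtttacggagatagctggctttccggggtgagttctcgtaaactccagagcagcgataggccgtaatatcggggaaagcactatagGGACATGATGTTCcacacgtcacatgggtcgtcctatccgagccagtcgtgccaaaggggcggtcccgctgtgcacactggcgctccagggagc

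The glucocorticoid receptor element matched 0.278% of all promoters searched, 6 of 318 promoters of higher genes (1.89%) and 1 of 66 of lower genes (1.52%). The E-box stood in 8.52%, 8.18% and 7.58% of the promoters of all, higher and lower genes. The AP-1 motif TGANTCA stood in 4.04%, 7.23% and 4.55%, the forkhead motif TGTTTAC in 2.08%, 3.14% and 1.52%, and the cyclic AMP element TGACGTCA in 2.72%, 0.943% and 1.52%. Of 10 promoters of the listed glucocorticoid and FoxO targets that rose, 2 held the receptor element and 1 the forkhead motif. These counts are small and were given no test.

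Of 55 tested matrix genes 27 rose (49.1%, against 3.19% of all tested genes), 0 fell and 28 were not called. The list's median log2 fold change was 0.45, against 0.09 over all tested genes. Cilp, the cartilage intermediate layer protein that cardiac fibroblasts secrete (chr9:65265180-65280605, plus strand), was at 10.6 and 12.2 CPM in RH/+ and 39.3 and 37.1 CPM in treated hearts. Its log2 fold change was 1.66 ± 0.13 (SE; limma adjusted p = 2.05e-11), and RH/RQ vehicle hearts had still more, 69.5 and 76.1 CPM. The microfibril genes Mfap4 and Mfap5 rose from 9.40 and 10.9 to 23.1 and 22.3 CPM and from 21.8 and 24.4 to 44.2 and 45.6 CPM. Ccn2 rose from 38.96 and 39.5 to 67.3 and 86.0 CPM, while RH/RQ vehicle hearts had 44.0 and 42.0 CPM. Thrombospondin-1 (Thbs1), the gelatinase gene Mmp2, the latent TGF-beta binding protein gene Ltbp2, periostin (Postn) and Comp also rose, with log2 fold changes of 1.05, 0.82, 1.14, 0.76 and 1.25.

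The fibrillar collagen genes Col1a1 and Col3a1 had smaller log2 fold changes than the matrix genes named above. That of Col1a1 was still above the list's median of 0.45. The fibrillar collagen genes Col5a2 and Col5a3 were also called higher. Col1a1 was at 35.5 and 42.3 CPM in RH/+ and 61.4 and 50.3 CPM in treated hearts (log2 fold change 0.51 ± 0.12 SE; limma adjusted p = 0.00748), and its call was lost without RH/+ replicate 1. Col3a1 was at 86.2 and 98.0 against 110 and 94.3 CPM, overlapping, and was not called (limma adjusted p = 0.532). RH/RQ vehicle hearts had 115 and 139 CPM of Col1a1 and 226 and 229 CPM of Col3a1. Thbs4 was likewise at 6.80 and 7.04 CPM in RH/+ and 9.10 and 9.44 CPM in treated hearts, not called (limma adjusted p = 0.197), against 36.9 and 42.0 CPM in RH/RQ vehicle hearts. The matrix list had 21 rises with TMM factors and 18 with DESeq2, 13 without RH/+ replicate 1 and 39 without treated replicate 2; in 13 of the 27 genes the rise held with every library left out in turn.

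**Figure D3:**
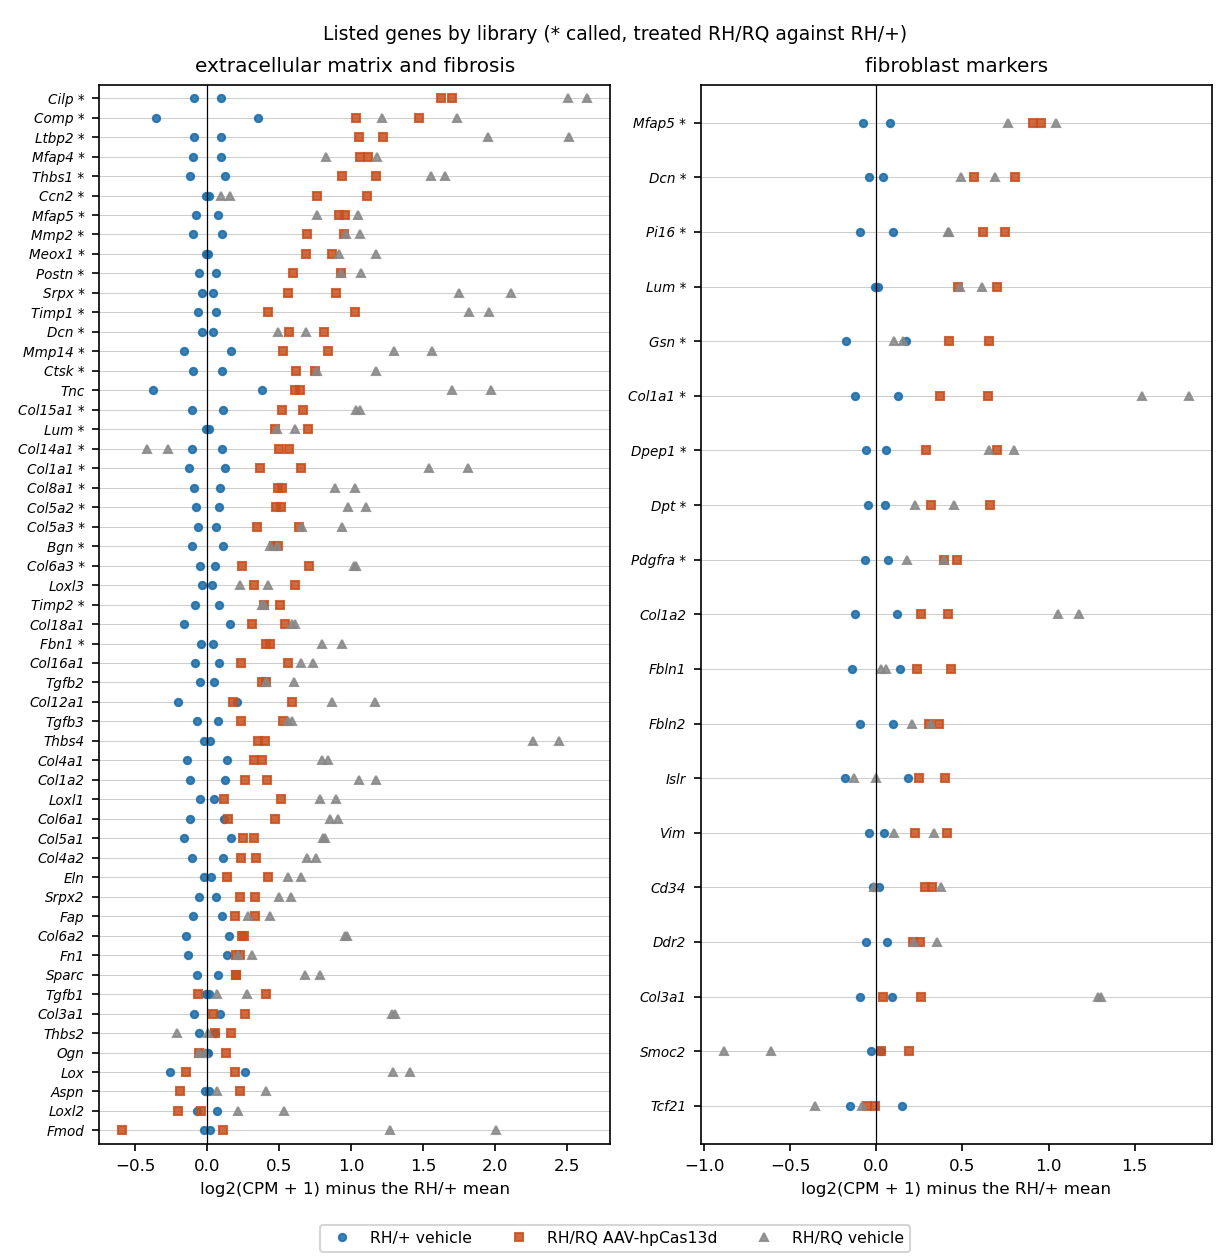
For tested matrix genes (left, all but 1) and fibroblast markers (right), each point is 1 library on log2(CPM + 1) minus the RH/+ mean of that gene, and an asterisk marks genes called between treated and RH/+ hearts. Cilp, Comp and Ltbp2 lead the treated libraries on the left, while the treated libraries of Thbs4 and Col3a1 lie near RH/+ and well below RH/RQ vehicle.

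Of 19 tested fibroblast markers 9 rose (47.4%, against 3.19% of all tested genes), 0 fell and 10 were not called, and the median log2 fold change was 0.34. Dcn (decorin), Lum (lumican) and Pi16, a marker of adventitial fibroblasts, rose from 526 and 556 to 947 and 803 CPM, from 122 and 123 to 200 and 171 CPM and from 63.5 and 72.9 to 115 and 105 CPM. The receptor gene Pdgfra was at 52.2 and 57.4 against 76.2 and 72.3 CPM, called (limma adjusted p = 0.0133) but not with TMM factors (0.094) or without either RH/+ replicate. The fibroblast transcription factor gene Tcf21 was at 10.97 and 13.8 against 12.2 and 11.8 CPM and was not called. The 20 listed markers summed to 3120 and 3612 CPM in RH/+, 5107 and 4424 CPM in treated and 4437 and 4142 CPM in RH/RQ vehicle hearts; their part in the matrix result was not tested. The list had 6 rises with DESeq2, 4 without RH/+ replicate 1 and 14 without treated replicate 2.

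Signalling genes that act on the matrix and the vessels were divided. Of 32 TGF-beta, BMP and Wnt genes, 7 rose (21.9%, against 3.19% of all tested genes) and 0 fell (median log2 fold change 0.17), with 4 rises under DESeq2, 3 without RH/+ replicate 1 and 12 without treated replicate 2. Among them the secreted Wnt antagonist gene Frzb went from 6.72 and 5.59 to 12.9 and 12.1 CPM. Sfrp1, another such antagonist, went from 16.3 and 19.9 to 30.1 and 25.1 CPM and was lost without RH/+ replicate 1. The Dickkopf family gene Dkk3 went from 8.03 and 10.8 to 18.7 and 21.1 CPM. Of 16 endothelin, angiotensin and natriuretic genes, Nppa, Edn3 and Ace rose and Mme and Agt fell, where 3.19% and 0.758% of all tested genes did. Edn3, the ligand endothelin-3, rose from 1.84 and 3.13 to 10.4 and 7.41 CPM and was at 14.1 and 14.6 CPM in RH/RQ vehicle hearts. Agt, the precursor of angiotensin, fell from 5.96 and 5.71 to 2.43 and 2.40 CPM, and Mme, the peptidase neprilysin that degrades natriuretic peptides, fell from 11.8 and 13.2 to 5.49 and 5.59 CPM. Mme was at 10.1 and 11.3 CPM in RH/RQ vehicle hearts, close to RH/+. Ace, at 40.5 and 47.3 against 62.5 and 56.9 CPM, was lost with TMM factors (limma adjusted p = 0.098) and without RH/+ replicate 1.

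Eps8l1, an adaptor protein of the actin-regulating EPS8 family (chr7:4460674-4480487, plus strand), had the largest log2(CPM + 1) fall of any called gene with a standard symbol. It was at 13.1 and 14.1 CPM in RH/+ hearts and at 0.772 and 0.712 CPM in treated hearts, with 6.53 and 4.79 CPM in RH/RQ vehicle hearts. The 3 groups did not overlap, and the log2 fold change of treated over RH/+ was -3.07 ± 0.17 (SE; limma adjusted p = 1.18e-14), or 18.4-fold lower by the ratio of mean CPM. Mylk4, a myosin light chain kinase family gene of striated muscle (chr13:32700834-32783954, minus strand), fell from 210 and 191 to 80.3 and 74.7 CPM (log2 fold change -1.36 ± 0.10 SE; limma adjusted p = 2.05e-11). RH/RQ vehicle hearts had 80.1 and 82.7 CPM, the same range as treated hearts.

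Among the other largest falls were metabolic and channel genes. Pfkfb1, which sets the level of a glycolytic activator, fell from 12.9 and 14.4 to 7.53 and 4.64 CPM. The Nogo receptor gene Rtn4r fell from 20.2 and 14.3 to 7.39 and 6.54 CPM, the chloride channel gene Clcn1 from 10.03 and 8.92 to 4.63 and 3.37 CPM and the water channel gene Aqp4 from 3.62 and 4.43 to 0.993 and 1.48 CPM. The mesothelial surface gene Msln fell from 7.14 and 3.98 to 2.70 and 1.19 CPM and Kcne1, a potassium channel subunit, from 7.43 and 4.13 to 1.30 and 2.93 CPM. Msln and Kcne1 were lost without RH/+ replicate 1, with log2 fold changes of -0.81 and -0.77. Kcne1 was also not called with DESeq2 (DESeq2 adjusted p = 0.371). Car3, an adipocyte and muscle carbonic anhydrase, was at 0.866 and 7.34 CPM in RH/+ and 0.579 and 0.448 CPM in treated hearts. Its call rested on RH/+ replicate 2, and without that library the limma adjusted p was 0.813.

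The remaining large rises were of other kinds. Ccl21a, a chemokine of lymphatic vessels with near-identical copies in the mouse genome, was at 10.6 CPM in treated replicate 1 and at 0.0264 CPM in treated replicate 2. RH/+ libraries had 0.0263 and 0.0251 CPM, 1 read each, so its call rested on 1 library and was lost without it (limma adjusted p = 0.999). Resf1, which acts in the silencing of endogenous retroviruses, was at 16.3 and 14.5 CPM in RH/+, 43.7 and 48.3 CPM in treated and 25.3 and 25.2 CPM in RH/RQ vehicle hearts. Fetub, a protease inhibitor of the fetuin family, rose from 0.446 and 0.526 to 3.67 and 2.98 CPM and was at 3.88 and 3.09 CPM in RH/RQ vehicle hearts.

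**Figure D4:**
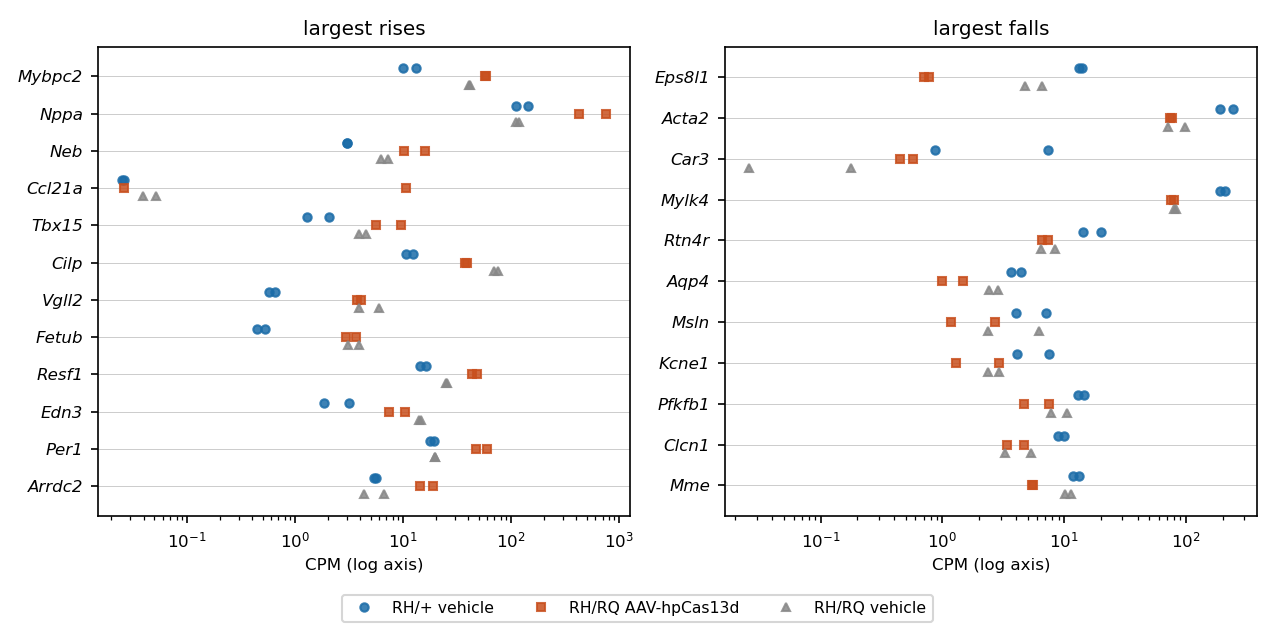
CPM in each library, on a log axis, of the genes with the largest called rises (left, 12 genes) and falls (right, all but 1 of 12) by log2 fold change; each point is 1 library of RH/+ vehicle, treated RH/RQ or RH/RQ vehicle hearts. Treated and RH/+ libraries are apart for Mybpc2, Nppa, Per1, Eps8l1 and Mylk4, whereas Ccl21a is high in treated replicate 1 only and Car3 in RH/+ replicate 2 only.

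Of 31 tested channels and connexins, 5 fell and 2 rose (16.1% and 6.45%), where 0.758% and 3.19% of all tested genes did, and the median log2 fold change was -0.05. Scn4b, a subunit of the cardiac sodium channel, fell from 107 and 92.3 to 67.2 and 52.7 CPM (log2 fold change -0.73 ± 0.11 SE; limma adjusted p = 6.72e-05). Kcnj2, Kcnj3, Scn4a and Kcne1 fell too, and Kcna5 and Kcnc1 rose. Of these only Kcne1 was not called with DESeq2. The 5 falls became 8 with TMM factors. Scn4b was the 1 fall that held with every library left out in turn, and both rises held, so that falls and rises numbered 1 and 2 without RH/+ replicate 1 and 2 and 2 without RH/+ replicate 2. RH/RQ vehicle hearts had 57.1 and 72.7 CPM of Scn4b.

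Of 47 genes of fatty acid uptake and oxidation, 2 rose (Pdk4 and Cpt1b) and 2 fell, among them Decr1, each 4.26% of the list against 3.19% higher and 0.758% lower over all tested genes. With DESeq2 the falls numbered 9. Decr1, an auxiliary enzyme of beta-oxidation, fell from 475 and 480 to 345 and 373 CPM. Of 39 genes of glucose and glycogen metabolism, Pdk4 and Pfkp rose and Pfkfb1 and Pdp2 fell (5.13% each way). Decr1, Pfkp and Pdp2 were lost without either RH/+ replicate, and Cpt1b without RH/+ replicate 1 or treated replicate 1. None of 76 nuclear respiratory chain genes passed limma's test, 0 had an unadjusted p under 0.05, and DESeq2 called 1. Of 15 mitochondrial genome genes, mt.Co3 fell from 1519 and 1209 to 886 and 875 CPM, lost without RH/+ replicate 1.

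Calcium cycling (25 tested), cardiac transcription factors (22) and cell cycle genes (18) had 0 calls by limma, with 4, 2 and 3 members at an unadjusted p under 0.05; with edgeR and with DESeq2 the counts were 0 higher and 1 lower, 0 and 1, and 0 and 0. Heat shock genes (30) had 0 calls with 5 at an unadjusted p under 0.05, and 3 falls with edgeR and with DESeq2, Hsph1 among them. All 74 tested ribosomal protein genes were above 0 (median log2 fold change 0.17), with 0 calls by limma, edgeR or DESeq2, while 14 had an unadjusted p under 0.05. Their list summed to 16532 and 16213 CPM in RH/+ and 20037 and 16700 CPM in treated hearts, and without treated replicate 2 it had 39 rises. Of 24 adrenergic and cyclic AMP genes, the phosphodiesterase gene Pde2a fell, where 0.758% of all tested genes did. That call was lost without either RH/+ replicate or without treated replicate 2.

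Between 11.4% and 21.4% of the genes in 4 other stress and signalling lists rose, against 3.19% of all tested genes. Of 35 ER stress and ATF4 genes, Ddit4, Cebpb, Eif4ebp1 and Gdf15 rose (11.4%; 2 with DESeq2, 2 without RH/+ replicate 1). Of 28 NRF2 and antioxidant genes, Nqo1, Hmox1, Gpx1 and Mt1 rose (14.3%). Nqo1, a quinone reductase, went from 48.3 and 45.8 to 79.6 and 68.9 CPM and held with every library left out; the list had 2 rises with TMM factors and 10 without treated replicate 2. Of 20 p53 targets, Cdkn1a, Gdf15 and Phlda3 rose (15.0%), with 1 rise when RH/+ replicate 1, RH/+ replicate 2 or treated replicate 1 was left out and 7 without treated replicate 2. Of 14 retinoic acid genes, 3 rose (21.4%), among them Cyp26b1 and Aldh1a1, and Aldh1a2 fell (7.14%), with 0 rises without RH/+ replicate 2. Cyp26b1, which degrades retinoic acid, was at 6.33 and 5.49 CPM in RH/+, 10.9 and 10.05 CPM in treated and 1.25 and 1.11 CPM in RH/RQ vehicle hearts.

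Immune genes were called in both directions, where 3.19% of all tested genes were called higher and 0.758% lower. Of 39 macrophage and monocyte genes, Gpnmb, Mpeg1 and Cx3cr1 rose and the chemokine gene Ccl2 fell from 3.81 and 3.56 to 1.30 and 1.95 CPM, lost without RH/+ replicate 1; the rises numbered 1 with TMM factors, 0 without RH/+ replicate 1 and 12 without treated replicate 2. The list summed to 601 and 609 CPM in RH/+ and 756 and 654 CPM in treated hearts. Of 48 interferon-stimulated genes, Rsad2 rose, and the interferon-gamma-induced GTPase genes Iigp1, Igtp and Gbp5 fell. Igtp was at 38.4 and 21.4 against 18.9 and 16.6 CPM, and all 3 falls were lost without RH/+ replicate 1; Rsad2 was lost without either RH/+ replicate. Of 18 complement genes 4 rose, among them Serping1, C1ra and Masp1, and these 3 were lost with TMM factors and without RH/+ replicate 1. Serping1, the C1 inhibitor, was at 105 and 117 CPM in RH/+ and 171 and 137 CPM in treated hearts. C7, a component of the membrane attack complex, was at 3.62 and 5.14 CPM in RH/+, 1.96 and 4.85 CPM in treated and 27.8 and 26.9 CPM in RH/RQ vehicle hearts. It was not called between treated and RH/+ hearts (limma adjusted p = 0.445).

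Of 23 MHC and antigen presentation genes Psmb10 rose, and of 18 genes that sense foreign RNA or DNA the NF-kappaB inhibitor gene Nfkbia rose, from 25.5 and 31.5 to 51.8 and 44.0 CPM. Over all tested genes 3.19% rose. Psmb10 was lost with TMM factors, edgeR and DESeq2, and without either RH/+ replicate or treated replicate 1. Nfkbia was called in each of these. Lymphocyte markers (10 tested) had 0 calls by limma, 1 fall by edgeR and 0 by DESeq2, with 3 at an unadjusted p under 0.05.

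Markers of other cell types moved as follows, where 3.19% of all tested genes rose and 0.758% fell. Of 9 blood markers, the globin genes Hba.a1, Hba.a2, Hbb.bs and Hbb.bt fell; Hbb.bs went from 139 and 150 to 104 and 83.0 CPM. The globin genes are near-identical pairs, and how the counting treated reads that fit both of a pair was not tested. Without RH/+ replicate 2 the calls of Hba.a1, Hba.a2 and Hbb.bt were lost and that of Hbb.bs was kept. The blood list summed to 271 and 320 CPM in RH/+ and 213 and 180 CPM in treated hearts. Of 13 epicardial and mesothelial genes, Msln, Upk3b and Aldh1a2 fell, all 3 lost without RH/+ replicate 1, and the list summed to 794 and 872 against 836 and 816 CPM. Of 19 smooth muscle and pericyte genes Acta2 alone was called, and the list summed to 3236 and 3389 against 3378 and 3462 CPM, so the fall of Acta2 was not shared by the summed list. Of 24 endothelial and lymphatic genes only Ccl21a was called, with sums of 4375 and 4278 against 4438 and 4270 CPM. Of 9 adipocyte genes only Car3 was called, and of 9 Schwann cell and neuronal genes only Pmp22, which was lost with TMM factors. The adipocyte genes Adipoq and Plin1 were at 0.184 and 0.752 and at 0.263 and 1.10 CPM in RH/+, and at or under 0.0551 CPM in treated hearts. The part of these cell types in the other results was not tested.

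**Figure D5:**
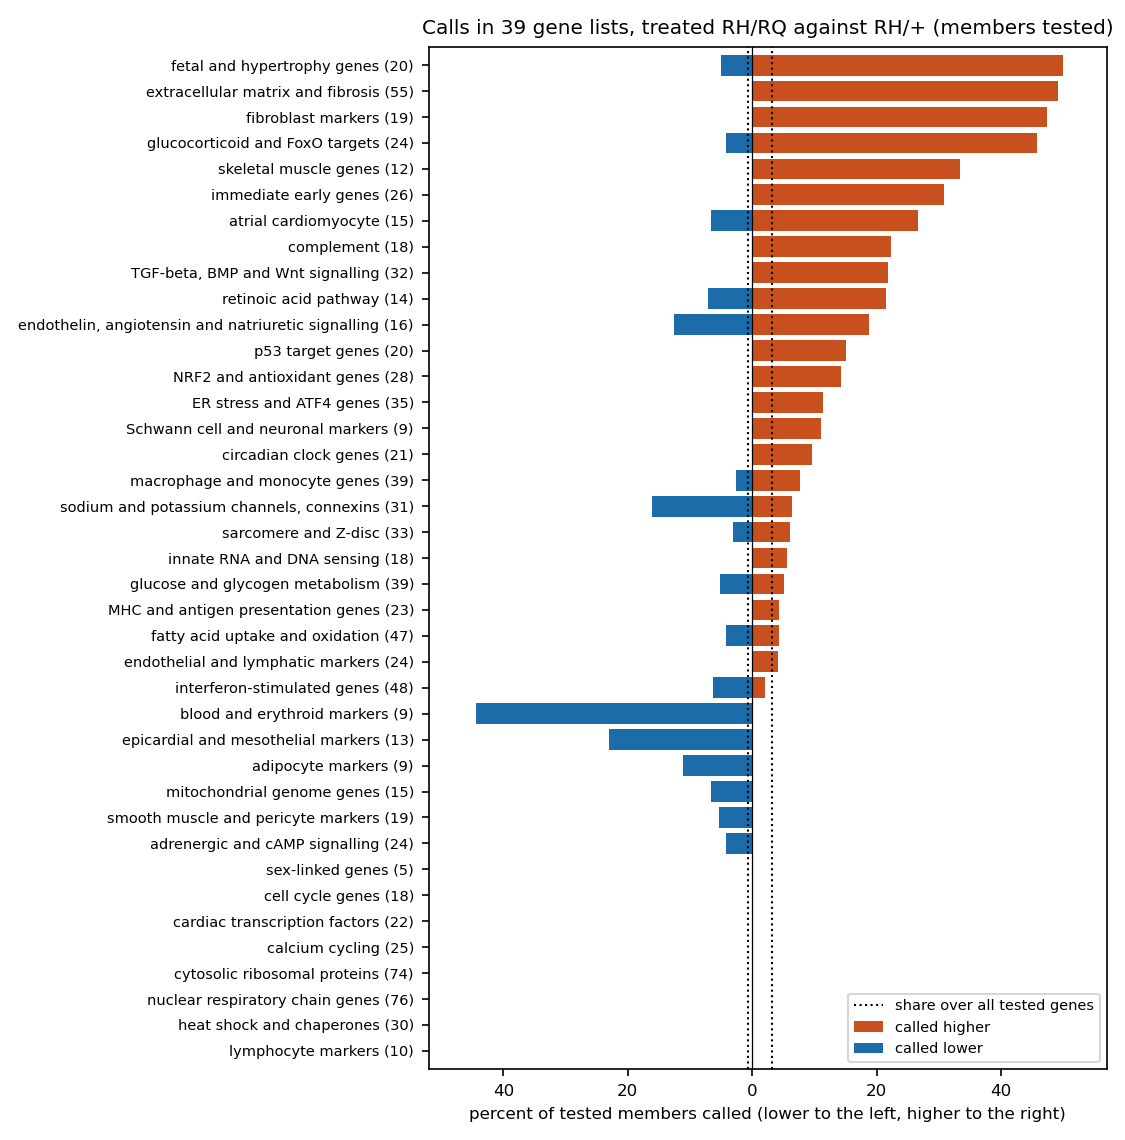
For each of 39 gene lists, bars give the percent of tested members called higher (right) and lower (left) in treated RH/RQ against RH/+ hearts, with the number tested in brackets; dotted lines mark the shares over all tested genes, 3.19% and 0.758%. The fetal, matrix, fibroblast and glucocorticoid lists have the longest bars to the right, between 45.8% and 50%, and the blood list has the longest to the left, 44.4%. The lists were chosen with earlier results of these data known.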

How the data were processed

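RNA of 6 mouse heart samples was sequenced after poly-T capture from 1 µg of total RNA, per the labels' protocols. The submitters' processing notes list HISAT2, HTSeq, DESeq2 and mm10. Versions and strand setting are not given in the sources used here, so reads of a gene and of its antisense partner cannot be told apart. The deposited tables hold CPM, which the authors scaled to the library total. Every value was a whole multiple of 1 read (100% of values, tolerance 0.001), so reads were recovered for edgeR 4.0.16 and DESeq2 1.42.0, run as alternatives that called 440 and 362 genes. Samples were grouped by genotype and treatment labels, and 0 sample columns were left unmapped. The reported test was limma 3.58.1 with a trend on log2(CPM + 1) over the 4 libraries, two-sided, Benjamini-Hochberg adjusted over 13453 genes. The tables write a hyphen in a symbol as a point. Gene positions are from GENCODE M21 (GRCm38) and promoters from RefSeq. The script was tested on simulated data.

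Members and the 39 gene lists were chosen with earlier results of these data known. Named genes are Myh6, Myh7, sex-linked genes, the 12 largest called rises and falls with a standard symbol, the 4 smallest p of each list, and all calls of lists with at most 5. Others named, among them Ankrd1, Gdf15, Rcan1, Thbs1, Postn, Col1a1, Col3a1, Thbs4, C7, Fkbp5 and Map3k6, were chosen after their values were seen. Alternatives were 2 other pseudocounts, 2 filters, 3 scalings, both count tools, all 6 libraries, the replicate number as a block, limma's test against a 1.5-fold change and each library left out. The authors' own fold changes and p-values were not used. A few genes that the rule names are not reported here.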

Additional observations from a re-analysis of the deposited data

Results flagged for a closer look

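The sum of the Y-linked genes Ddx3y, Eif2s3y, Uty and Kdm5d stands out in the 2 libraries that are given only as levels: 198 CPM in RH/RQ vehicle replicate 1 and 193 CPM in RH/RQ vehicle replicate 2. These sums come from 10102 and 7474 reads, against 1, 0, 0 and 2 reads in the RH/+ and treated libraries, and Xist in these libraries was at 0.274 and 0.0516 CPM.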

How the results depend on the processing

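The 531 calls (429 higher, 102 lower) stayed within 1.5 times, in total and in each direction, with a pseudocount of 0.1 or 5, a minimum mean of 5 CPM, CPM over nuclear genes, all 6 libraries and a replicate block. The replicate block left 1 residual degree of freedom, and limma then took the spread wholly from the trend over genes. TMM factors gave 253 higher and 189 lower calls, RLE factors 251 and 189, edgeR 257 and 183, and DESeq2 200 and 162. With no filter on low genes limma made 0 calls among 27638 genes, with 2664 at an unadjusted p under 0.05; the residual plus prior degrees of freedom were then 5.01 against 33.6. Against a fold of 1.5 there were 23 calls, 18 higher and 5 lower. Leaving out 1 library gave 172 to 1565 calls, 137 to 1377 higher and 35 to 189 lower; such fits have 1 residual degree of freedom, the lone library is assumed to vary like the other group, and limma took the spread wholly from the trend over genes. Over the lists, 97 genes were called higher and 28 lower. These became 60 and 51 with DESeq2, 0 and 0 with no filter, and 7 and 2 against a fold of 1.5; the lower count was 46 with TMM factors, RLE factors or edgeR. Leaving out 1 library gave 46 to 218 and 13 to 52.

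The replicate numbers did not pair the samples (correlation of deviations -0.03), and the replicate block gave 572 calls, 459 higher and 113 lower, with 102 and 30 over the lists. Of 110 named genes that were called, 93 stayed calls with TMM factors, 92 with edgeR, 82 with DESeq2, 64 without RH/+ replicate 1, 78 without RH/+ replicate 2, 92 without treated replicate 1 and 107 without treated replicate 2, and 0 reversed in any alternative that was run.

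Genes not called, with log2 fold changes near 0, changed sign. With TMM, RLE, edgeR and DESeq2 in that order, Kdm5c went to -0.063, -0.064, -0.066 and -0.068, Eif2s3x to -0.016, -0.018, -0.0057 and -0.0077, Ddx3x to -0.020, -0.0215, -0.012 and -0.014, and Myl2 to -0.042, -0.043, -0.038 and -0.040; Kdm6a went to -0.0078 and -0.00898 with TMM and RLE. Over the fits that leave out 1 library, the log2 fold change ran from -0.014 to 0.21 for Kdm6a, -0.10 to 0.19 for Kdm5c, -0.018 to 0.20 for Eif2s3x, -0.0027 to 0.18 for Ddx3x, -0.0087 to 0.14 for Myl2, -1.99 to 0.062 for Cfd, -0.79 to 0.24 for Gfra3, -0.61 to 0.051 for Cd74, -0.18 to 0.12 for Tcf21 and -0.85 to 0.14 for C7. The sign changed without treated replicate 2 for Kdm6a, Eif2s3x, Ddx3x, Gfra3 and Cd74, without treated replicate 1 for C7, without RH/+ replicate 1 for Kdm5c and Myl2, and without RH/+ replicate 2 for Cfd and Tcf21.

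The number of libraries, 2 per group, limits the precision of every fold change given; the cause of the counts that moved was not tested.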
